A study of Triticum aestivum with 8 samples.

Results

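Wheat embryos (Triticum aestivum, cultivar Norin61) imbibed for 16 h were compared with those of dry seed, the first step of germination that the study covers. The comparison was chosen by sample title and uses 5 of the 8 arrays of the series, 3 for 16 h imbibed embryos and 2 for dry-seed embryos. For the 16 h group, sterilised grains lay on wet cotton at 25 °C without light, and a grain was kept only if its radicle, the embryonic root, had reached 3 mm. The dry-seed group received no imbibition, so its embryos are the stored state. Each array carried labelled RNA from a pool of 7 embryos, and each labelling began with 200 ng of total RNA. No genotype, transgene or chemical other than the sterilising rinse separates the groups, and no endosperm or whole grain was profiled. The titles, source names and design text give 16 h, while the description fields of these samples give 8 h, so the time rests on the titles. Separate sowings are not stated for the pools of a group, so p-values here measure only how these pools vary, and that spread may be technical. The stage was split into 3 pools per the labels, and 2 dry-seed pools were analysed here.

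A cereal embryo dries at the end of seed maturation with a store of messenger RNA that was made on the mother plant. Once water enters, part of this store is translated and part is degraded, while the embryo starts transcription again. Emergence of the radicle through the coleorhiza, the sheath around it, marks the end of germination in the strict sense and the start of seedling growth. A measurement before water uptake and one after radicle emergence therefore compares stored transcripts with those of a growing root and shoot.

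The array reports each transcript by the brightness of a probe, a short DNA strand fixed at a spot. Of 43603 wheat probes, 4 carry a mnemonic transcript name. The others carry an assembly, EST or cDNA identifier or only the probe's own ID. The files pair no identifier with a gene description, and of 40253 transcript names 0 matched the RefSeq table. Gene families, pathways and embryo or endosperm markers could therefore not be looked up, so the labelled tissue was not checked against markers. The probes' base sequences were not analysed here either. Results below are given for classes of probes and for 8 probes by name.

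Replicates were close and the groups far apart. Across 24028 probes well above background on all 5 arrays and with a value on every array of the pairs compared, the median difference was 0.14 to 0.24 (log2) between 16 h arrays and 0.14 between the dry-seed arrays. Between a 16 h and a dry-seed array it was 0.98 to 1.04. The share of probes at least 2-fold apart was 0.400% to 3.00% between 16 h arrays and 0.445% between dry-seed arrays. Between the groups it was 49.1% to 51.6%. The arrays lay on 2 slides: 16 h replicates 1 and 2 and dry-seed replicate 1 on slide 1, and 16 h replicate 3 and dry-seed replicate 2 on slide 2. The software's own quality check placed the spot-to-spot variation of dry-seed replicate 1 out of range.

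Among the 16 h arrays, replicate 1 stood apart. It differed at least 2-fold from replicate 2 at 3.00% of probes and from replicate 3 at 2.59%, while replicates 2 and 3, which lay on different slides, differed at 0.400%. Its deviations lay toward the 24 h arrays of the series. Of 383 probes at least 2-fold higher in replicate 1 than in replicate 2, 334 (87.2%) were higher in the mean of the 24 h arrays than in replicate 3, against 44.7% of all probes. Of 339 that were at least 2-fold lower, 317 (93.5%) were lower in the 24 h mean, against 55.3% of all probes. With replicates 2 and 3 exchanged the shares were 89.0% and 85.9%. Some counts below are therefore also given without replicate 1.

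Relative to RNA added as a control, wheat signal was several times higher at 16 h than in dry seed. The control, or spike-in, transcripts bind probes named E1A_r60. Of 10 such probes, 8 were well above background on every array and set the scale. The 75th percentile of the wheat probes stood at 10.56, 10.30 and 10.31 (log2 relative to the spike-ins) on the 16 h arrays, against 7.60 and 7.41 on the dry-seed arrays. The groups did not overlap, and the difference of 2.88 on the log2 scale is a 7.36-fold higher level at 16 h. The difference was 2.83 on slide 1 and 2.89 on slide 2. The exact two-sided permutation test gave p = 0.1, the smallest value that 10 splits of 3 and 2 arrays allow, so this test cannot go below 0.1 for any value per array.

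The difference between 16 h and dry seed was not the same at every brightness. It was 3.01 (log2) at the median of the wheat probes, 2.71 at the 90th percentile and 2.35 at the 99th. The low percentiles mostly hold probes at background, and there the difference was 1.91 at the 25th and 0.94 at the 10th percentile. Total wheat signal was 4.97-fold higher at 16 h (log2 difference 2.31; exact two-sided permutation test, p = 0.1). Each labelling began with the same mass of total RNA, so these values describe signal per mass of total RNA and not per embryo. At equal mass of total RNA, a bulk sample cannot tell a changed mix of cells from changed RNA content within cells. The spike-in probes themselves were dimmer at 16 h, by -0.23 to -0.52 on the log2 scale over the 8 probes, and the offset taken from them, which differed by -0.45, enters the difference of 2.88.

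**Figure D1:**
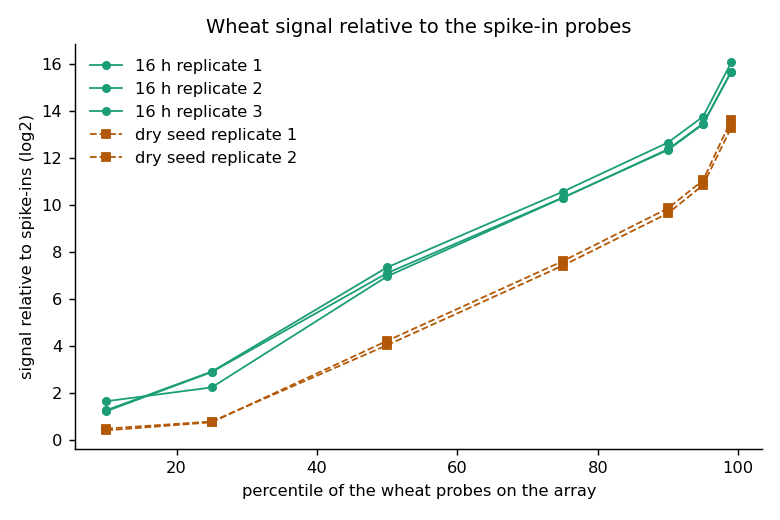
Signal of the wheat probes relative to the spike-in probes (log2, vertical axis) at 7 percentiles of each array (horizontal axis), with a line for each of the 3 arrays at 16 h and the 2 arrays of dry seed. The 16 h lines lie above the dry-seed lines throughout, with a gap of 3.01 at the median and 2.35 at the 99th percentile.

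Signal was spread over more probes at 16 h. Brightness also depends on how well a probe binds, so ranks and shares describe probes and not the abundance of 1 transcript against another. It took 792, 884 and 865 of the brightest probes to reach 50% of the wheat signal on the 16 h arrays, against 446 and 489 on the dry-seed arrays. The 10 brightest probes of an array held 2.35%, 2.40% and 2.55% of its signal at 16 h, against 5.31% and 5.02% in dry seed. The 1000 brightest held 52.4% to 54.4% at 16 h and 62.8% to 64.4% in dry seed. None of these measures overlapped between the groups, each with p = 0.1 in the exact two-sided permutation test. Few of the very brightest probes were the same. The 10 brightest probes by group mean had 1 probe in common, the 100 brightest had 35 and the 1000 brightest had 550. The 10 brightest dry-seed probes had a median rank of 2428.5 at 16 h. All 10 of them were called lower at 16 h, with log2 changes from -7.53 to -2.45 after scaling to the 75th percentile, and 8 were lower relative to the spike-ins too. For the 10 brightest at 16 h the lowest rank in dry seed was 859, with changes from -2.45 to 2.92. These sets were chosen for their brightness in 1 group, so their direction is partly built in.

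Scaled to each array's 75th percentile, which sets a transcript against the other transcripts of its array, 16075 of 30833 tested probes (52.1%) were called changed at 16 h. A call needs a limma adjusted p below 0.05 and at least a 2-fold change. Higher at 16 h were 7925 probes (25.7%) and lower 8150 (26.4%). This balance moved with the background correction and with the filter on dim probes. Normexp background correction gave 4012 higher and 12622 lower. Testing every probe without a filter put 30.9% of the calls higher, and testing only probes above background on all 5 arrays put 42.3% higher. With the 16 h and dry-seed arrays ranked probe by probe, the groups did not overlap at 25812 probes (83.7% of those tested), 12526 with 16 h higher (40.6%) and 13286 with it lower (43.1%). When the test itself asked for more than a 2-fold change (limma treat, adjusted p below 0.05), 5479 were higher (17.8%) and 5424 lower (17.6%) at 16 h, together 35.4% of those tested. The median standard error of a log2 change was 0.17. The 95% interval lay wholly inside 2-fold for 8406 probes (27.3%), so for these a change of 2-fold or more on this scale is outside the interval. With the spike-in scaling described below, the interval lay inside 2-fold for 1010 probes (3.28%). Of the 8150 lower calls, 253 rested on probes below background on all 5 arrays. These were tested because the 24 h arrays detected them. No fall was measured at them, since neither group was above background. Of the 360 tested probes of this kind, 244 were called higher relative to the spike-ins.

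Changes chosen on 1 slide were measured on the other, so that the choice and the measurement shared no array. Of 8077 probes at least 2-fold higher at 16 h on slide 1, 87.3% were again at least 2-fold higher on slide 2, and of 8522 at least 2-fold lower, 85.1% were again so. Chosen on slide 2 and measured on slide 1, the shares were 86.1% of 8188 higher and 88.1% of 8228 lower. Without 16 h replicate 1, 15370 of the 16075 probes kept their call, and none of the 16075 was called the other way. With normexp background correction, 11386 of the 16075 kept their call and 938 were called the other way. Probes that share a transcript name gave a further comparison. Of 2192 names with several tested probes, 420 had every probe called higher and 350 every probe called lower. Of the 912 names with at least 2 called probes, 47 had calls in both directions. For names with several probes above background on all 5 arrays, the median range of the log2 change between probes was 0.42.

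Relative to the spike-ins, most tested probes were higher at 16 h. This scaling moved every log2 change up by the same amount, 2.88. By the same call it gave 27601 changed probes (89.5% of those tested), 26754 higher (86.8%) and 847 lower (2.75%) at 16 h. The median log2 change was 2.82, against -0.06 after scaling to the 75th percentile. All 7925 probes higher by the first scaling were also higher by the second. Of the 14758 probes with no call by the first scaling, 14701 were higher relative to the spike-ins, with a median log2 change of 2.84. Of the 8150 lower by the first scaling, 4128 (50.7%) were higher relative to the spike-ins, 3175 (39.0%) had no call and 847 (10.4%) were lower by both. For most of the 8150, then, a lower level against the other transcripts did not come with a called fall relative to the spike-ins.

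**Figure D2:**
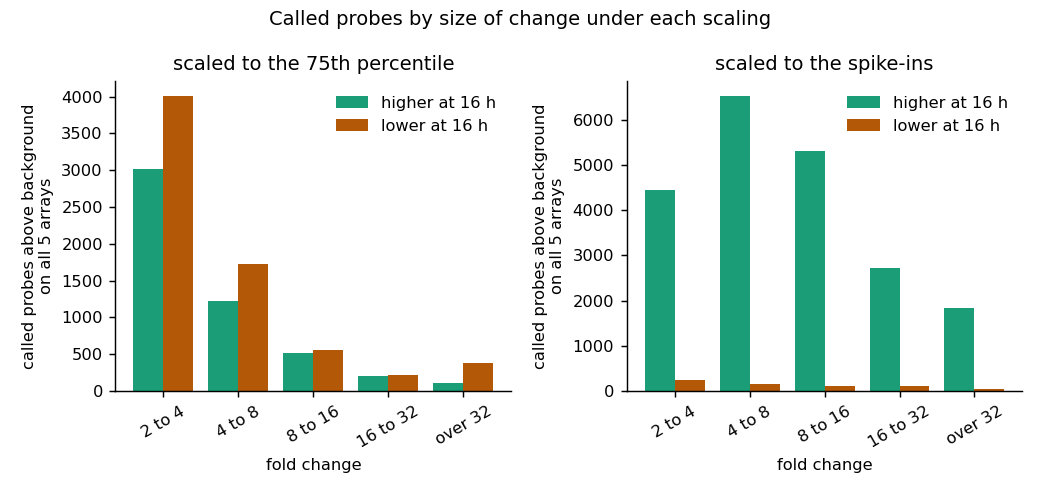
Number of called probes above background on all 5 arrays (vertical axis, a separate range in each panel) by fold change (horizontal axis), higher at 16 h beside lower at 16 h, scaled to the 75th percentile on the left and to the spike-ins on the right. By the first scaling 5056 such probes were higher and 6879 lower at 16 h, and by the second 20835 were higher and 637 lower.

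The 847 probes lower at 16 h by both scalings were followed further. All 847 were well above background on both dry-seed arrays. At 16 h, 148 of them were well above background on no array. For the 637 measured on all 5 arrays the median fall relative to the spike-ins was 5.38-fold and the largest 77.7-fold. A fall of at least 8-fold was measured at 241 of them. They ranged widely in brightness: 43 were among the 100 brightest probes of dry seed and 234 among the 1000 brightest, and their median rank was 4454. Together they held 0.457%, 0.639% and 0.601% of the wheat signal at 16 h, against 23.7% and 22.8% in dry seed. Since the probes were chosen on these arrays, the shares were also taken across slides. The 935 probes at least 2-fold lower relative to the spike-ins on slide 1 held 0.655% of the signal of the 16 h array on slide 2, against 23.2% of its dry-seed array. On slide 2, 82.4% of them were again at least 2-fold lower. The 829 chosen on slide 2 held 0.530% at 16 h on slide 1, against 23.5% in dry seed, and 92.9% were again at least 2-fold lower. With normexp background correction the number of probes lower relative to the spike-ins was 557, all of them among the 847. The spike-in offset used there was still that of the processed signal.

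The signal of each array can be divided by the calls of the first scaling. The 7925 probes higher at 16 h held 31.3% ± 0.39 (SD, n = 3) of the wheat signal at 16 h, against 4.92% ± 0.04 (SD, n = 2) in dry seed. The 8150 lower probes held 14.0% ± 0.75 (SD, n = 3) at 16 h, against 54.3% ± 0.14 (SD, n = 2) in dry seed. The 14758 probes without a call held 54.6% ± 0.61 (SD, n = 3) at 16 h and 40.6% ± 0.18 (SD, n = 2) in dry seed. The direction in the first 2 classes follows from the way they were chosen. Over 50% of the signal at 16 h came from probes without a call, while in dry seed over 50% came from probes that were lower at 16 h.

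Probes that were bright in the dry embryo were lower at 16 h most often. Probes were sorted into 10 level bins of equal size by 1 dry-seed array, and their change was taken from the slide with the other. The choice and the measurement thus shared no array, but both rest on the level in dry seed. In the brightest bin by dry-seed replicate 1, the median log2 change on slide 2 was -0.93, with 48.2% of 2616 probes at least 2-fold lower and 6.54% at least 2-fold higher at 16 h. In bin 5, near the middle, the median was -0.05, with 26.5% lower and 24.2% higher. In the dimmest bin it was -0.09, with 32.7% lower and 31.3% higher. The medians by dry-seed replicate 2 on slide 1 were -0.91, -0.03 and -0.13 for the same bins. On the spike-in scale, 12.8% of the brightest bin were at least 2-fold lower on slide 2, against 1.34% to 3.48% in the other bins, and the median change there was still a rise of 1.96 on the log2 scale. Sorted by 16 h replicate 3 and measured on slide 1, the brightest bin had a median change of 0.37, with 33.8% at least 2-fold higher and 13.0% at least 2-fold lower. Bright probes of the 16 h embryo were thus more often higher than lower, and bright probes of the dry embryo more often lower. The level used for sorting also enters the change, so these directions are partly built in and test no trend with brightness.

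**Figure D3:**
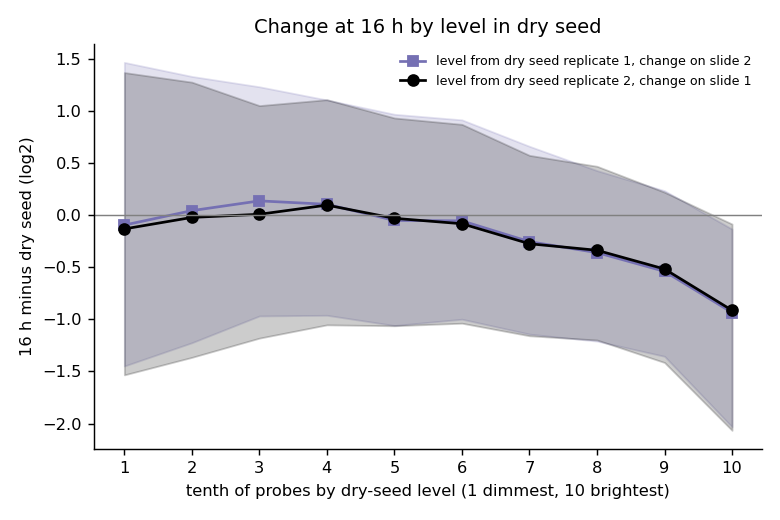
Change from dry seed to 16 h (log2, scaled to the 75th percentile, vertical axis) for 10 bins of the probes by brightness in a dry-seed array (horizontal axis), with level and change taken from different arrays. Lines are medians and bands span the 25th to the 75th percentile. They fall to -0.93 and -0.91 in the brightest bin, a direction partly built in by sorting on the dry-seed level.

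Among the 24036 tested probes measured on all 5 arrays, large falls outnumbered large rises. This set leaves out every rise that began below background on a dry-seed array, and those arrays were the dimmer ones. Within it, rises thinned out steadily with size: 512 were between 3 and 4 on the log2 scale, 204 between 4 and 5, 76 between 5 and 6, 19 between 6 and 7 and 6 between 7 and 8. Falls thinned out to the same degree at first, with 552 between 3 and 4 and 211 between 4 and 5. They then thinned out more slowly than the rises, with 156, 102 and 96 in the next 3 steps. In this set 103 probes were more than 32-fold higher at 16 h and 384 more than 32-fold lower. Over all called probes the fitted change passed 32-fold for 474 rises and 505 falls, and 486 rises and 301 falls lay between 16-fold and 32-fold, so the asymmetry is that of the probes measured on all 5 arrays. A fitted size is not a measured one where a group is below background. Counted by the bounds given below, a further 142 rises and 25 falls reached at least 32-fold. Beyond 128-fold there were 126 falls and 8 rises among the probes measured on all 5 arrays. The same shape was seen within each slide, with 390 falls and 96 rises beyond 32-fold on slide 1 and 366 and 119 on slide 2. With normexp background correction the numbers were 265 and 22. Without 16 h replicate 1 they were 361 and 103. Spike-in scaling shifts every change alike, so it moves the zero of this distribution and not its shape. The counts beyond 32-fold do depend on that zero. Relative to the spike-ins, 1837 rises and 36 falls called in this set passed 32-fold.

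The steep changes measured on all 5 arrays are described by where they started. A probe that falls over 32-fold and stays above background must start bright, so the levels, ranks and shares of these probes follow in part from their choice. The 384 steep falls carry 352 transcript names and had a median level of -2.13 (log2 relative to the 75th percentile) at 16 h, against 4.62 in dry seed. Of them, 0 were among the 1000 brightest at 16 h and 190 among the 1000 brightest in dry seed. Dry-seed levels among them ranged from -1.36 to 10.06. They held 0.297% of the wheat signal at 16 h on average, against 19.1% in dry seed. The 103 steep risers had a median level of 2.69 at 16 h and -3.07 in dry seed, and 13 of them were among the 1000 brightest at 16 h. They held 1.09% of the signal at 16 h and 0.0141% in dry seed.

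**Figure D4:**
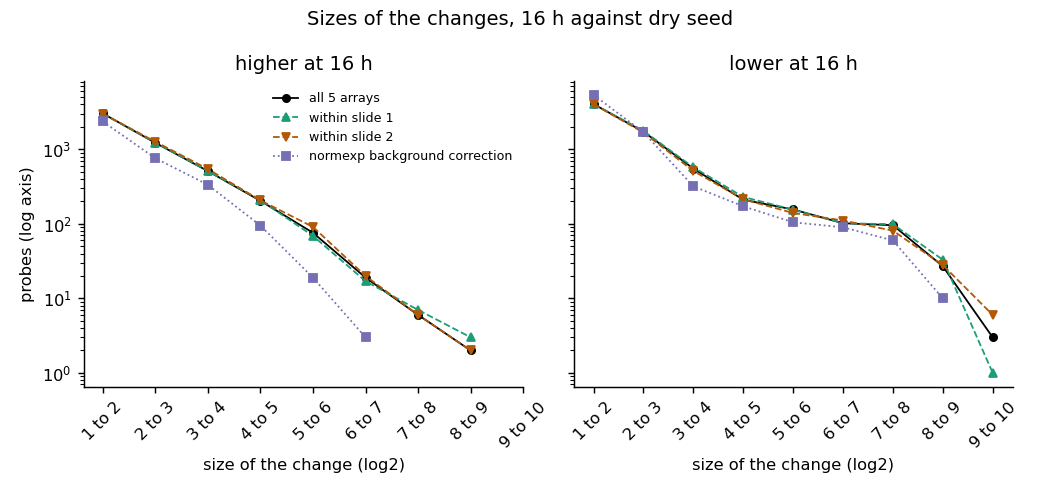
Number of probes (log axis, vertical) by size of the change (log2, horizontal axis) for probes higher (left) and lower (right) at 16 h, among 24036 probes above background on all 5 arrays. Lines stand for all 5 arrays, each slide alone and normexp background correction. Between 5 and 8 the falls thin out more slowly than the rises, in a set that leaves out rises from below background in dry seed.

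Detection changed mostly in the direction of gain. Probes well above background numbered 31232, 28889 and 31106 on the 16 h arrays, against 26165 and 25322 on the dry-seed arrays (exact two-sided permutation test, p = 0.1). On all 3 arrays at 16 h and neither dry-seed array there were 3380 probes, of which 2368 were called higher at 16 h and 13 lower. On both dry-seed arrays and no 16 h array there were 197, all called lower. Of all tested probes, 25.7% were called higher and 26.4% lower. Both classes were chosen by detection in 1 group only, so the direction of their calls is largely built in. Since 1 side is below background, these changes are bounds, computed against the higher of the probe's own signal and the lowest detected signal of each array. The bound reached 2-fold for 1359 of the 2368 and 8-fold for 443, and the 5 largest bounds ran from at least 417-fold to at least 670-fold higher at 16 h. For the 197 the median bound was at least 9.61-fold lower, 124 reached 8-fold, and the 5 largest ran from at least 125-fold to at least 240-fold. On the spike-in scale the bound still reached 2-fold for 61 of the 197 and 8-fold for 14. For the 2368 called higher, the bound on that scale reached 2-fold for all 2368 and 8-fold for 1914. On 16 h replicate 2 the lowest detected signal was 16.8 (linear units), against 9.94 and 9.09 on the other 16 h arrays. Without it 4512 probes in place of 3380 were detected only at 16 h. With dry-seed replicate 1 left out the probes detected only in dry seed numbered 397, and with replicate 2 left out 508. The gain in detection goes with brighter arrays at 16 h, and its part in these counts was not tested.

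Of all tested probes, 26.4% were called lower at 16 h relative to the 75th percentile and 2.75% relative to the spike-ins. All 4 probes with a mnemonic name were lower at 16 h by both scalings. HSP, in 2 of the names, commonly stands for heat shock proteins, chaperones that also accumulate as seeds mature and dry, though the files do not describe these probes. TAHSP173 (probe A_99_P405772) stood at 3.05, 1.72 and 1.61 (log2 relative to the 75th percentile) at 16 h, against 7.40 and 7.02 in dry seed. The 16 h replicate 1 array was the highest of its group and still lay far below both dry-seed arrays. Its log2 change of -5.09 (SE 0.40) had a limma adjusted p of 1.47e-05. Scaled to the spike-ins, the levels were 13.61, 12.01 and 11.92 at 16 h, against 15.00 and 14.44 in dry seed, a 4.61-fold fall (limma adjusted p = 0.00015). By rank of group means it stood 4187th of all probes at 16 h and 157th in dry seed.

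TAHSPLW (A_99_P405777) had linear signals of 6.36, 4.27 and 6.43 at 16 h, none of them well above background, against 317 and 196 in dry seed. It was therefore at least 117-fold lower at 16 h relative to the 75th percentile. The bound on the spike-in scale was at least 15.9-fold lower. The fitted log2 changes, which use the undetected 16 h signals, were -7.91 relative to the 75th percentile (limma adjusted p = 7.42e-07) and -5.03 relative to the spike-ins (limma adjusted p = 1.77e-09). These p-values test the fitted changes and not the bounds. Both bounds hold for the processed signal: normexp background correction, which raises dim values, gave a fitted log2 change of -4.19 relative to the 75th percentile and -1.57 relative to the spike-ins. Both dry-seed arrays measured it well above background and no 16 h array did.

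MTTANADH2 (A_99_P406497) was the steadiest of the 4 between replicates. It stood at -0.29, -0.72 and -0.43 (log2 relative to the 75th percentile) at 16 h, against 3.50 and 3.53 in dry seed. Its log2 change was -3.99 (SE 0.16), with a limma adjusted p of 6.38e-07. On the spike-in scale the change was -1.11 (SE 0.31, limma adjusted p = 0.00326), a 2.17-fold fall that lies close to the 2-fold minimum. Without 16 h replicate 2 it was -0.95 (limma adjusted p = 0.0149) and no longer reached 2-fold. TATHAUMLP (A_99_P440452) stood at -0.84, -1.72 and -1.57 at 16 h, against 3.31 and 2.85 in dry seed. Its change was -4.46 relative to the 75th percentile (limma adjusted p = 5.05e-06) and -1.58 relative to the spike-ins (limma adjusted p = 0.00044). For each of the 4 probes the 16 h arrays lay below both dry-seed arrays by either scaling. Relative to the 75th percentile, this held for 43.1% of all tested probes.

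The extremes of the comparison are given as levels in every array. The steepest rise measured on both sides was that of A_99_P532422 (transcript TA61467_4565), with linear signals of 40831, 24941 and 24460 at 16 h, against 11.2 and 18.3 in dry seed. Its log2 level relative to the 75th percentile was 4.74, 4.09 and 4.37 at 16 h and -4.57 and -3.76 in dry seed. That change was 8.56 (95% interval 7.94 to 9.19, limma adjusted p = 2.80e-07). A_99_P229621 (TA61444_4565) followed, at 4.70, 3.74 and 4.21 at 16 h, against -4.01 and -3.90 in dry seed. Its change was 8.17 (95% interval 7.59 to 8.76, limma adjusted p = 2.66e-07). By rank of brightness these probes stood 915th and 1031st at 16 h, against 23948th and 23326th in dry seed.

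The steepest fall was that of A_99_P248541 (TA66706_4565), with linear signals of 318, 336 and 203 at 16 h, against 31539 and 27603 in dry seed. The log2 levels were -2.27, -2.13 and -2.54 at 16 h, against 6.90 and 6.80 in dry seed, a change of -9.16 (95% interval -9.60 to -8.72, limma adjusted p = 1.28e-07). A_99_P003031 (TA66521_4565) stood at -5.14, -4.76 and -5.37 at 16 h, against 3.95 and 3.94 in dry seed. Its change was -9.04 (95% interval -9.84 to -8.23, limma adjusted p = 5.51e-07). Both were still lower at 16 h relative to the spike-ins, by 77.7-fold and 71.4-fold. The 10 steepest rises measured on both sides ran from 95.4-fold to 379-fold, and the 10 steepest falls from 421-fold to 572-fold. With normexp background correction the log2 changes were smaller, at 4.88 to 6.52 for the rises and -8.57 to -6.78 for the falls.

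**Figure D5:**
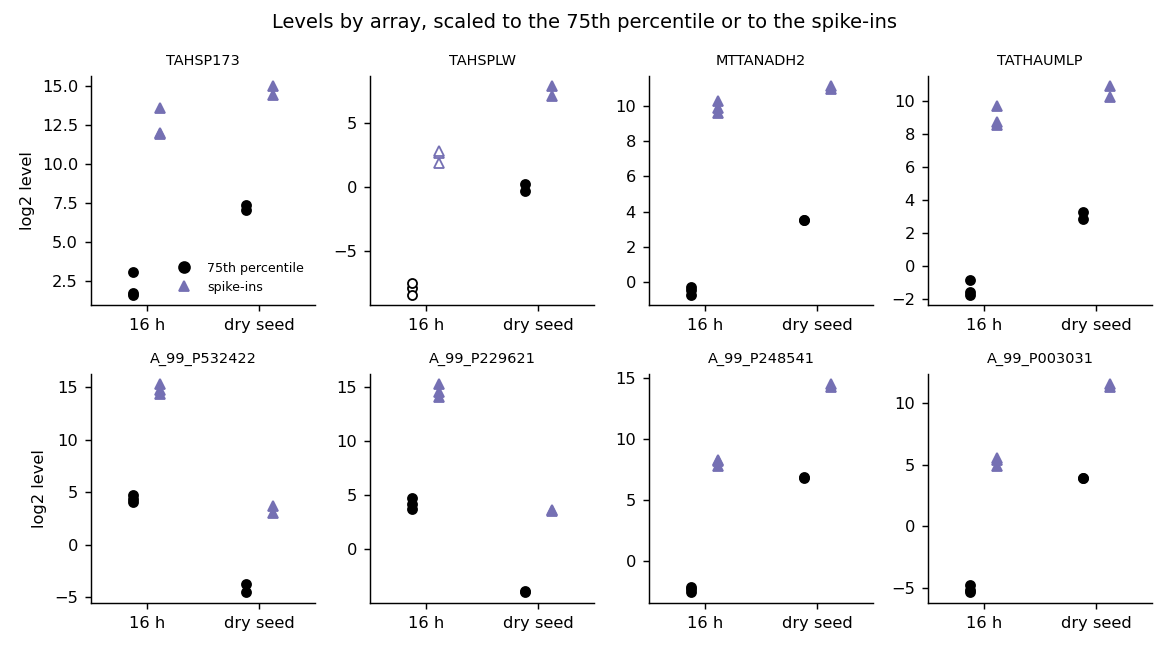
Levels (log2, vertical axis) of the 4 probes with a mnemonic name (top row) and of the 2 steepest rises and 2 steepest falls (bottom row), with a point for each of the 3 arrays at 16 h and the 2 of dry seed. Circles are scaled to the 75th percentile and triangles to the spike-ins, and open symbols were not well above background. The 16 h and dry-seed points do not overlap in any panel. Relative to the 75th percentile, the groups did not overlap at 83.7% of all tested probes.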

How the data were processed

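Per the file headers, the authors quantified each single-colour (Cy3) array with Agilent Feature Extraction 10.7.3.1. The deposited processed signal is a linear intensity, with background subtracted within the array and nothing scaled between arrays. A second deposited table gives log2 values, used only as an alternative. Compared with the scanner files, they proved to be log2 processed signal less the array's 75th percentile, with every probe's median over 8 arrays subtracted. In that table the columns of 24 h replicates 2 and 3 each matched the scanner values of the other. Its column medians were -0.05, 0.00 and -0.04 at 16 h and 0.47 and 0.51 in dry seed.

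Here log2 processed signals of non-control probes were scaled by each array's 75th percentile, outlier spots (3 to 15 per array) were left out and the spots of a probe averaged. A probe counted as well above background where the software marked at least 50% of its spots so. It was tested if that held on every array of at least 1 group. limma 3.58.1 (R 4.3.3) was fitted on all 8 arrays with a mean per group, and p-values were adjusted by the Benjamini-Hochberg method over all tested probes. Spike-in scaling subtracts the median deviation of the 8 detected E1A_r60 probes. This offset came from the processed signal, also where wheat probes had normexp background correction. The number of arrays limits the precision. Named are the 4 mnemonic probes and the 2 largest rises and falls above background on all 5 arrays; a longer list of 10 rises and 10 falls was shortened to these because the files describe no probe, and planned gene lists could not be formed. The comparison and lists were chosen with earlier results of these data known. The limma script was tested on simulated data.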

Additional observations from a re-analysis of the deposited data

How the results depend on the processing

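The number of probes changed at 16 h ranged over 16023 to 16243 with 1 array left out at a time, with 7774 to 8068 higher, 8088 to 8415 lower and 48.0% to 49.9% of calls higher. It was 16019 with the slide as a block. The choice of scale, the background correction and the filter on dim probes moved the balance. Spike-in scaling gave 27601 calls, 26754 higher and 847 lower, with 96.9% higher against 49.3% after scaling to the 75th percentile. Normexp background correction gave 4012 higher and 12622 lower, so 24.1% of calls were higher. With no filter on dim probes there were 25550 calls, 17653 of them lower, and 30.9% higher. The median log2 change of the tested probes was -0.06 after scaling to the 75th percentile, -0.67 with normexp, -0.19 with median scaling, 0.10 with the 75th percentile of detected probes and 2.82 with the spike-ins. Requiring signal on all 5 arrays left 24036 tested probes, 5067 of them higher and 6898 lower, so 42.3% of calls were higher. This filter leaves out the 2368 higher calls at probes undetected on both dry-seed arrays. The test against 2-fold, chosen after seeing the data, left 5424 lower. Relative to the spike-ins, leaving out single arrays gave 27296 to 28306 calls, 26378 to 27487 higher, 819 to 1056 lower and 96.2% to 97.1% higher; normexp gave 557 lower. Leaving out single arrays, the 75th percentile relative to the spike-ins differed by 2.79 to 2.98, the number of probes above background by 4244 to 5426, and the share of the 100 brightest by -9.22 to -8.25 percentage points. The share held by the brightest probes differed by -11.2 points over the larger set that was tried, against -8.74 for the 100 brightest. The cause of these shifts was not tested beyond what is stated. The replicate numbers of the groups do not pair the pools by any label. Deviations of same-numbered arrays correlated at -0.03 and -0.04, and with the number as a replicate block 16194 probes were called relative to the 75th percentile and 27576 relative to the spike-ins. The named probes kept their direction and call relative to the 75th percentile in each alternative that tested them; TAHSPLW is not tested where signal on all 5 arrays is required, and values within 1 slide have no test. On the spike-in scale, MTTANADH2 without 16 h replicate 2 changed by -0.95 and lost its call, while the other named probes kept theirs. Signal over background limits the dry-seed side most, where 25322 and 26165 probes were detected.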
